A study of Drosophila melanogaster with 30 samples.

Results

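The sites described here are the 300-bp bins of the *Drosophila* genome that the authors list as different in MNase accessibility (MACC) between cells expressing PH-ML and S2 cells. They were selected by the authors' own list for this comparison, and the direction of each bin is the line with the higher MACC that the list names. The list holds 810 bins, of which 600 have the higher MACC in PH-ML (PH-ML-high bins) and 210 have it in S2 (S2-high bins), out of 7543 different bins in the lists for all 3 comparisons of the study. Counted against the 464488 bins spanned by the lists, these are 0.129% and 0.0452%, together 0.174%. Since the list itself was made from the MACC difference, the number and direction of its bins are given as a description with no test.

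The PH-ML line (PH-mut in the sample labels) consists of S2 cells that stably carry a tagged PH with a mutation in its SAM polymerization domain, expressed from an inducible metallothionein promoter. The S2 line carries no such construct. The labels give growth after addition of 0.5 mM CuSO4 for all samples, S2 included, and both lines keep the PH made from their own *ph-p* and *ph-d* genes. There is 1 stable line for the construct, so the construct and the line that carries it cannot be told apart. Each line has 10 libraries, from 2 experiments with 5 amounts of MNase, which makes 20 libraries for this comparison. The amounts are 1.5, 6.25, 25, 100 and 400 U in the design text, and the sample labels write 1.65 for the lowest. The list joins both experiments and all amounts, and it gives no MACC score, p-value or read number. No value per library, no spread between experiments and no depth can therefore be given for a bin, and nothing is known about bins just inside or outside the threshold. The 95% Wilson intervals below cover counting error alone, and neighboring bins are not independent.

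PH is a subunit of PRC1, a Polycomb complex that keeps developmental genes such as the Hox genes silent. Its SAM domain lets PH molecules join head to tail, and these chains gather PRC1-bound chromatin into clusters in the nucleus. PH-ML is known as a dominant negative form, since a mutant molecule that enters a chain stops its growth. MACC measures how the reads released from a bin change as more MNase is added. A bin that gives up its nucleosomes readily has a high MACC, and a bin in closed chromatin has a low one. *Drosophila* chromosome ends carry arrays of telomeric retrotransposons next to repeated subtelomeric sequence, which is a form of heterochromatin. The small chromosome 4 and the sequence around centromeres are rich in heterochromatin as well.

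The excess of PH-ML-high bins was seen on all 5 large arms but differed in density. The densest arms for PH-ML-high bins were 3L with 5.27 bins per Mb, 3R with 4.80 and 2L with 4.22, whereas 2R had 2.51 and X had 2.45. For S2-high bins, 3R came first with 2.19 per Mb, followed by 3L with 1.76 and 2R with 1.56, and the densities were 0.695 on 2L and 0.669 on X. On 2L 85.8% of 113 listed bins were higher in PH-ML (interval 78.2% to 91.1%), and on 2R 61.6% of 86 bins were (51.1% to 71.2%). Of the 97 PH-ML-high bins on 2L, 18 lay in 1 cluster at its end, so the intervals are no test between arms. The 3 other arms lay between, with 78.6% of 70 bins on X, 75% of 172 on 3L and 68.7% of 195 on 3R. Large parts of the arms held no listed bin of either direction. The longest empty stretch was 3.83 Mb on X, from 7375801 to 11206800 (dm3). The longest on the other arms were 2.23 Mb on 3R from 21936001 to 24165600, 2.12 Mb on 3L from 5743201 to 7860300, 1.62 Mb on 2L from 8535601 to 10156800, and 1.33 Mb on 2R from 7521001 to 8847000. In windows of 1 Mb, 39 of 122 held only PH-ML-high bins, 12 held only S2-high bins, 51 held both and 20 held neither. A window had a median of 2 PH-ML-high bins and 1 S2-high, but 11 windows with 10 or more bins held 232 of the PH-ML-high bins, and 2 such windows held 45 of those higher in S2.

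The chromosome ends stood out in how densely they were listed. On the 5 large arms the outermost 100 kb had 75 PH-ML-high bins and no S2-high bin. Over all spanned bins, 0.129% were PH-ML-high and 0.0452% S2-high. At the latter share few or no S2-high bins would fall in this length, so their absence here is not a contrast. On 3L, 46 PH-ML-high bins lay between 301 and 19500, which is 71.9% of the 64 bins in these 19.2 kb. They formed 15 runs of adjacent bins, separated by no more than 0.6 kb, and the longest runs covered 10 bins from 10201 to 13200, 8 bins from 4501 to 6900 and 7 bins from 901 to 3000. Beyond this cluster the arm was empty up to 606.9 kb from the end. On 2L the listed part was shorter and closed, with 18 of 19 bins between 301 and 6000 in a run of 16 bins and a run of 2 bins. On 3R, 8 of the last 20 bins were listed, from 27898801 to 27904800, in 7 runs of no more than 2 bins. On 2R the cluster at the end had only 2 adjacent PH-ML-high bins, which were the last listed positions of the arm. On X the nearest PH-ML-high bin was 1850 kb from the end, although an S2-high bin lay at 324 kb. For 2R and 3R the end was taken as the last bin in any list, so the distance of 0 there is set in part by the list itself.

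**Figure D1:**
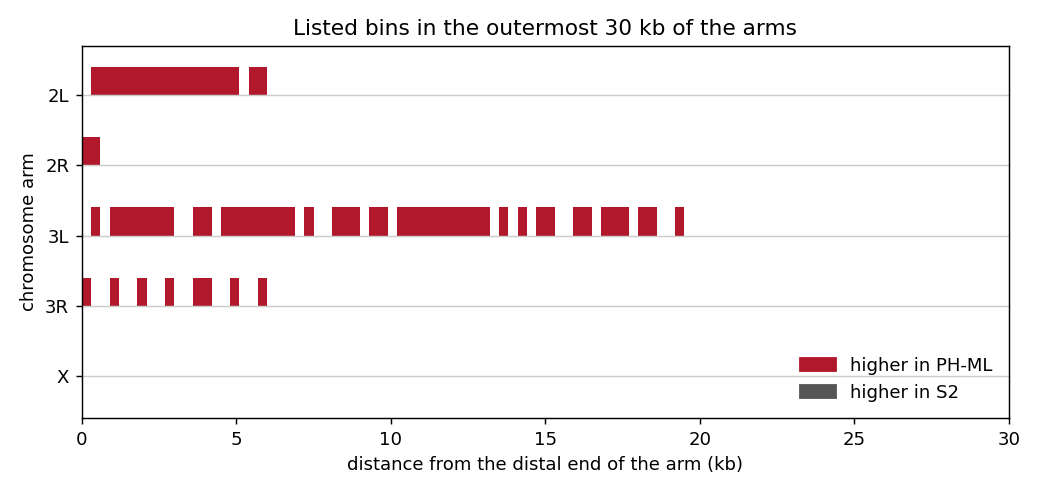
Listed bins in the outermost 30 kb of the 5 large arms, as boxes of 300 bp drawn to scale against the distance from the distal end in kb, with PH-ML-high bins above each line and S2-high bins below it. The boxes on 3L reach 19.5 kb and those on 2L and 3R reach 6.0 kb, X has none, and no S2-high bin appears on any arm. S2-high bins are 0.0452% of all spanned bins, and at that share few or none would fall in this length.

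At these ends, the comparisons that share libraries with this one had the following entries. The PH-WT line, which expresses wild type PH from the same kind of promoter, was compared with the same S2 libraries. That comparison lists 0.0721% of all spanned bins with the higher MACC in PH-WT and 0.233% with the higher MACC in S2. The cluster at the end of 3L had none of either kind, the cluster on 2L had 1 bin with PH-WT above S2 and 0 with S2 above PH-WT, and the cluster on 3R had none. PH-ML was also compared with PH-WT, and that list holds 0.788% of all spanned bins with the higher MACC in PH-ML and 0.707% with the higher MACC in PH-WT. In the order 3L, 2L and 3R, the end clusters held 45, 17 and 10 bins in which PH-ML exceeded PH-WT, and none in which PH-WT exceeded PH-ML. These entries rest in part on the same libraries and are not independent of the list described here. Whether the PH-ML line gained or lost DNA at its chromosome ends was not tested, as positions alone carry no read numbers.

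Each large arm was then cut into 10 equal segments, numbered from the distal end to the centromere. Both directions were most frequent in segment 1, where 3L held the most PH-ML-high bins and 3R the most S2-high bins. This segment held 132 of 468 PH-ML-high bins, or 28.2% (24.3% to 32.4%), and 55 of 168 S2-high bins, or 32.7% (26.1% to 40.1%). Of the PH-ML-high bins, 60 lay on 3L and 38 on 2L. Of the S2-high bins, 39 lay on 3R, which is 63.9% of the 61 on that arm, and 10 lay on 3L. On 3L segment 1 thus held the most bins of both directions. Without the cluster at the end of 3L, the share of PH-ML-high bins in segment 1 was 20.4%, and without the largest cluster of the other direction the share of S2-high bins was 25.7%. That cluster, of 16 bins, is part of a place of 120 kb on 3R with 28 S2-high bins, chosen after its values were seen. The other bins of this place were kept in the 25.7%. Segment 1 of 3R had 21 PH-ML-high bins and 39 S2-high, and the other segments of 3R together had 113 and 22, so that 83.7% of 135 bins there were higher in PH-ML. A majority of S2-high bins in a segment with 10 or more listed bins was found at 1 further place, segment 4 of 2R, with 4 PH-ML-high bins and 7 S2-high. Segment 8 of 3R had 40 PH-ML-high bins and 2 S2-high, segment 4 of 3R had 24 and 0, and segment 6 of X had 18 and 1. Segment 10, next to the centromere, held 53 PH-ML-high bins, or 11.3%, and 16 S2-high, or 9.52%. Of these, 21 and 5 were on 2R, which thus had its largest number of PH-ML-high bins at the proximal end and only 3 in segment 1. Of the 21 and 5, 17 and 4 lay in 1 place of 55.8 kb, from 1589401 to 1645200.

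**Figure D2:**
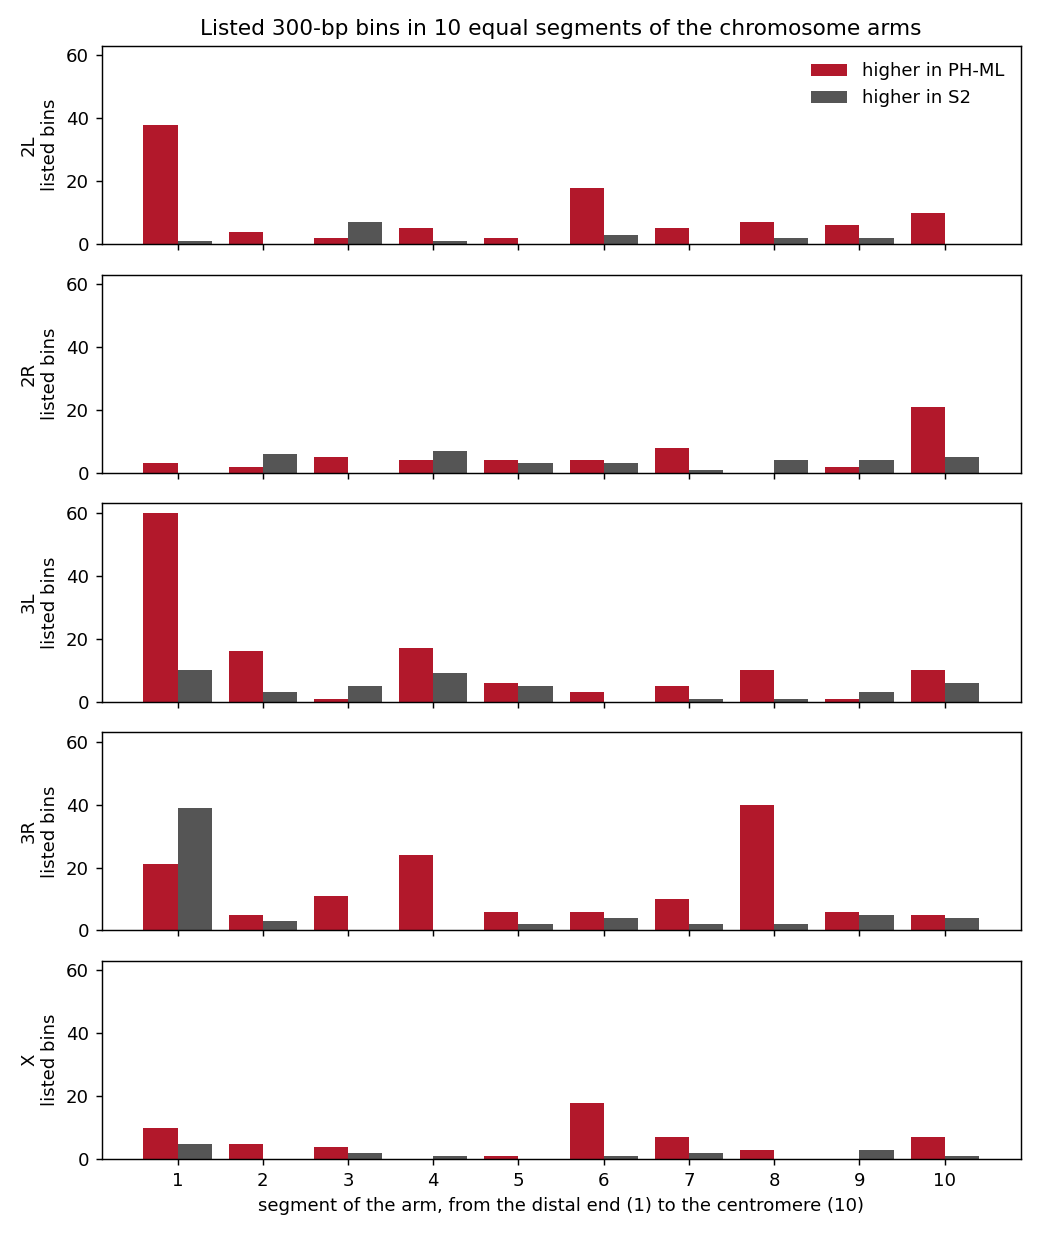
Number of listed 300-bp bins (vertical axis) in each of 10 equal segments of the arms 2L, 2R, 3L, 3R and X, counted from the distal end (1) to the centromere (10), with PH-ML-high bins on the left and S2-high bins on the right of each pair of bars. The tallest bars are the 60 PH-ML-high bins in segment 1 of 3L, the 40 in segment 8 of 3R and, for S2-high bins, the 39 in segment 1 of 3R.

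Spacing was measured from the start of a bin to the start of the next bin of the same direction on the same sequence. For PH-ML-high bins the median of 589 distances was 4.80 kb, with quartiles of 0.3 kb and 219.6 kb. For S2-high bins the median of 199 distances was 49.8 kb, with quartiles of 1.50 kb and 785.9 kb. Between the starts of runs, so that adjacent bins counted once, the medians were 69.9 kb for PH-ML and 112.7 kb for S2, and without the largest cluster of each direction they were 9 kb and 88.8 kb. The list of S2-high bins is shorter, which by itself widens the spacing, and the lists were not brought to equal size. Directly adjacent bins made up 29.2% of distances between PH-ML-high bins (25.7% to 33.0%) and 11.6% between S2-high bins (7.83% to 16.8%). After the adjacent bins, 40 distances between PH-ML-high bins skipped 1 bin and 28 skipped 2 bins, and the numbers for S2-high bins were 14 and 6. Up to 10 kb, the shares were 54.8% (50.8% to 58.8%) for PH-ML and 41.7% (35.1% to 48.6%) for S2. Among the large arms, bins were closest together on 3L, with a median of 0.750 kb between PH-ML-high bins, and on 3R, where it was 1.50 kb. The value for 3L rested on the end of the arm, since it was 19.9 kb without that cluster. For S2-high bins the shortest median on a large arm was 9 kb on 3R, and on X it was 1124 kb. A sequenced fragment can reach over the border of a bin, so adjacent bins share reads, and the part of this in the adjacency was not tested.

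**Figure D3:**
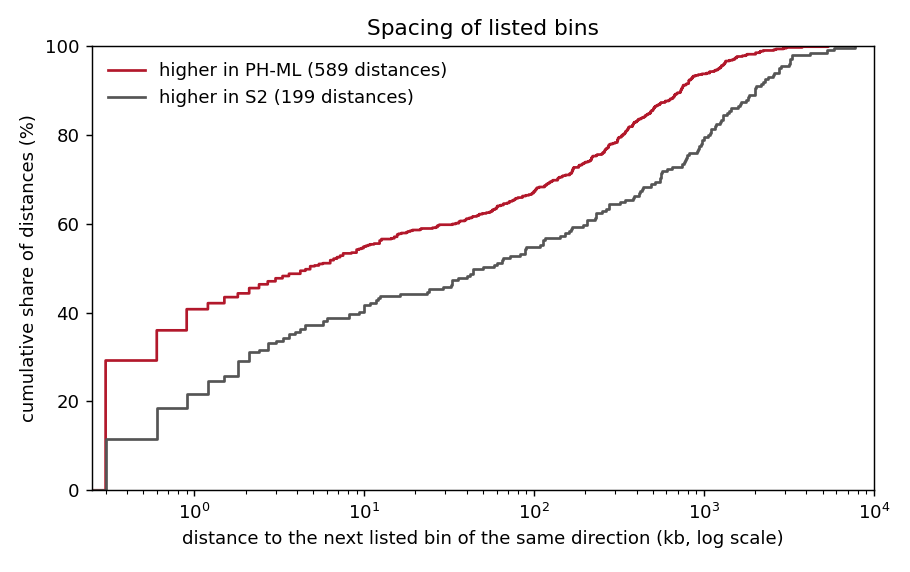
Cumulative share of distances (vertical axis, %) up to a given distance to the next listed bin of the same direction (horizontal axis, kb, log scale), for 589 distances between PH-ML-high bins and 199 between S2-high bins. The line for PH-ML starts at 29.2% at the smallest distance of 0.3 kb and lies above the line for S2, which starts at 11.6%, and the medians are 4.80 kb and 49.8 kb, against 69.9 kb and 112.7 kb between the starts of runs, which are not drawn.

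To describe clusters, bins of the same direction were joined while the next start was no more than 10 kb away. The 600 PH-ML-high bins formed 277 clusters, of which 178 were a single bin, and the 210 S2-high bins formed 127, of which 89 were a single bin. Clusters of 5 or more bins held 216 PH-ML-high bins, or 36.0% (32.3% to 39.9%), in 18 clusters, and 34 S2-high bins, or 16.2% (11.8% to 21.8%), in 4 clusters. Clusters of 10 or more bins held 151 PH-ML-high bins in 8 clusters, and 16 S2-high bins in 1 cluster. The 18 clusters of PH-ML were 2.70 to 26.4 kb long, with a median of 10.1 kb, and the share of their bins that was listed ran from 10.6% to 94.7%. Of these clusters 7 lay on 3R, 4 on 3L, 2 on X, 2 on 2R and 1 each on 2L, 2RHet and U, and the largest on chromosome 4 had 4 bins. Of the 18, 1 on 2R had S2-high bins within its limits, namely 2. The 4 large clusters of S2-high bins held no PH-ML-high bin. Over all spanned bins, 0.0452% were S2-high and 0.129% PH-ML-high. At these shares, spans of this length would hold few or no bins of the other direction, so the counts do not show that the directions avoid each other. When the joining distance was 1 kb, S2-high bins formed no cluster of 5 or more, whereas 21.8% of the PH-ML-high bins still did. The list of S2-high bins is shorter, which by itself lowers the share in clusters, and the lists were not brought to equal size.

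**Figure D4:**
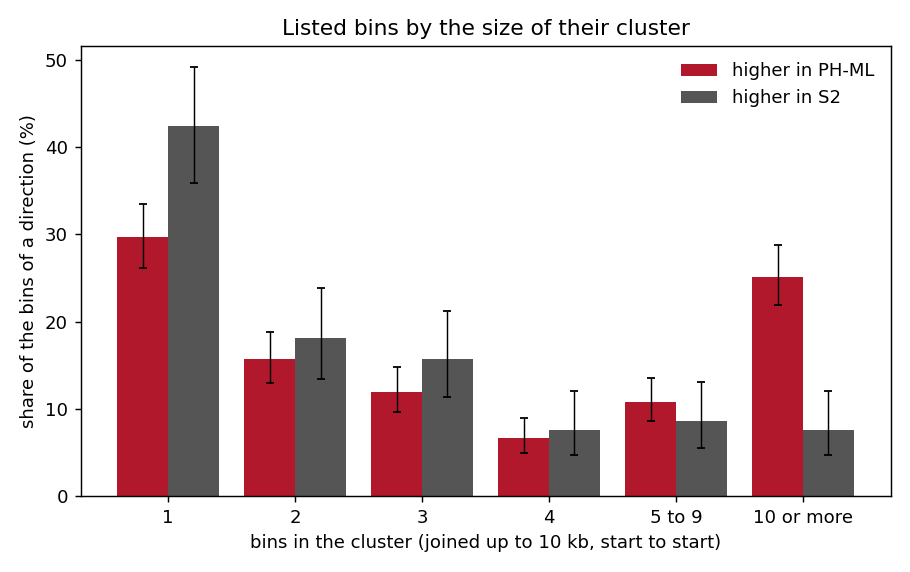
Share of the bins of a direction (vertical axis, %) in clusters of 1, 2, 3, 4, 5 to 9, and 10 or more bins, joined up to 10 kb, with PH-ML-high bins on the left and S2-high bins on the right of each pair and 95% Wilson intervals as error bars. Single bins make up 29.7% for PH-ML and 42.4% for S2, and clusters of 10 or more make up 25.2% and 7.62%. The lists hold 600 and 210 bins and were not brought to equal size.

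Away from the ends, the clusters with the most PH-ML-high bins lay on 3R and 3L. On 3R, 18 bins between 8328301 and 8337600 made up 58.1% of the bins there, in 8 runs of which the longest covered 5 bins from 8332801 to 8334300. A neighboring cluster of 15 bins, from 8290801 to 8317200, began with 9 bins in its first 4 runs, up to 8295900, and went on with a run of 3 bins from 8303101 to 8304000 and 3 isolated bins. The unlisted stretch between both clusters was 11.1 kb, and together they held 33 bins in 46.8 kb and no S2-high bin. Further along the arm, 16 bins lay between 17122501 and 17137500, with a run of 7 bins from 17125201 to 17127300 and, after it, only 4 bins up to the high end, 2 of them adjacent. On 3L, 15 bins lay between 9367201 and 9379800, 7 of them in a run from 9374701 to 9376800. The 6 largest clusters, those at the ends of 3L and 2L included, held 128 of the 600 bins, or 21.3%. Of the clusters beyond these 6, some were named after their values were seen. The shortest was on 3R from 19880401 to 19883100, where 8 of 9 bins were listed. On X, 8 of 19 bins were listed between 11695501 and 11701200, and on the unplaced sequence U 13 bins lay between 5288101 and 5305800 in 10 runs of no more than 2 bins.

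In several of these inner clusters the comparisons that share libraries had entries of a kind not seen in the end clusters of 3L, 2L and 3R. The cluster on 3R from 8328301 had 0 bins with PH-WT above S2 and 21 with S2 above PH-WT, and the neighboring one had 0 and 9. The cluster from 17122501 had 0 and 8, that on 3L from 9367201 had 0 and 15, and the short one from 19880401 had 0 and 9, which is all of its bins. Where PH-ML was set against PH-WT, the same 5 clusters had 28, 26, 28, 24 and 9 bins with PH-ML above PH-WT, and none of them had a bin with PH-WT above PH-ML. Other clusters, like those at the ends of 3L and 3R, had no entry for PH-WT against S2. These were the cluster on the unplaced U from 5288101 and, within arms, that on X from 11695501 and one of 5 bins on 3R from 11068501. They held 36, 12 and 8 bins with PH-ML above PH-WT and none with PH-WT above PH-ML. On X a cluster of 7 PH-ML-high bins, from 2014801 to 2025600, had 16 bins with PH-WT above S2 and 0 with S2 above PH-WT. It had 2 bins with PH-ML above PH-WT and 8 with PH-WT above PH-ML. Other clusters had both of these kinds as well. In the same order, the cluster on 2R from 1628701 had 12 and 8 and that from 1608901 had 8 and 1. On 3L the counts were 17 and 4 from 625501 and 9 and 1 from 3423301, and on 3R 6 and 3 from 26597401. Over all 18 clusters of 5 or more bins, 6 had at least 1 bin with PH-WT above S2, 11 had at least 1 bin with S2 above PH-WT, and 5 had no entry of either kind. The S2 libraries are shared with the comparison of PH-WT and S2, and the PH-ML libraries with that of PH-ML and PH-WT. The direction of these entries is therefore set in part by the selection of the clusters. The counts are a description and not a second measurement of the PH-ML bins.

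Bins higher in S2 were grouped more loosely, in a list of 210 bins against 600 for PH-ML. The lists were not brought to equal size, so the part of list length in this was not tested. The longest runs had 3 bins, and there were 4 of them. They covered 13064401 to 13065300 on 2R, 687001 to 687900 on 2RHet, 8673301 to 8674200 on 3L and 25562701 to 25563600 on 3R. The largest cluster lay in segment 1 of 3R, from 25542001 to 25574400, where 16 of 108 bins were listed in 13 runs. With a joining distance of 50 kb it became part of a group of 33 bins. A cluster of 8 bins followed on 3L from 648901 to 660300, in 6 runs, and clusters of 5 bins lay on 2R from 13064401 to 13067100 and on 3R from 25509301 to 25526100. There were 4 clusters of 4 bins, of which the first 2 in order of sequence and position lay on 3L, from 8671501 to 8674200 and from 8685901 to 8693700. The cluster of 16 bins on 3R had 11 bins with PH-WT above S2 and 0 with S2 above PH-WT, that on 3R from 25509301 had 5 and 0, and that on 3L from 648901 had 2 and 0. The clusters of 4 bins on 3L had entries of the other kind, with 0 and 4 from 8671501 and 0 and 2 from 8685901. The cluster on 2R had no entry for PH-WT against S2. Where PH-ML was set against PH-WT, the cluster of 16 bins had 41 bins with PH-WT above PH-ML and 1 with PH-ML above PH-WT. The clusters on 3L from 648901, on 2R and on 3R from 25509301 had 14 and 2, 5 and 0, and 21 and 2. Those of 4 bins had 4 and 3 from 8671501, and 3 and 5 from 8685901. Over all spanned bins, 0.0721% were listed with PH-WT above S2 and 0.233% with S2 above PH-WT. PH-WT was above PH-ML in 0.707% and PH-ML above PH-WT in 0.788%. Both comparisons share libraries with the list that selected these clusters. The direction of their entries is set in part by that selection, and they are no second measurement.

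Bins of opposite direction were direct neighbors in 1 case. S2-high bins were 0.0452% of all spanned bins, and at that share few would lie directly beside a PH-ML-high bin. The count therefore does not show that the directions avoid each other. When all listed bins were read in order along each sequence, 798 pairs of neighbors were formed, of which 508 were both higher in PH-ML, 123 were both higher in S2 and 167 changed direction. The share that changed direction depended on the distance between the neighbors. It was 1 of 196 for adjacent bins, or 0.510% (0.0901% to 2.83%), 4 of 92 or 4.35% (1.70% to 10.7%) for distances up to 1 kb, and 27 of 140 or 19.3% (13.6% to 26.6%) for distances above 1 and up to 10 kb. Between 10 and 100 kb it was 48 of 130 or 36.9% (29.1% to 45.5%), and beyond 100 kb 87 of 240 or 36.3% (30.4% to 42.5%). At every distance most neighbors carried the same direction. A list with 74.1% of bins higher in PH-ML gives such a majority by its composition alone. The share of changes under a random order of directions was not computed, so the shares above 10 kb are not read as agreement in direction. The share that changed was lower up to 10 kb than beyond it, and both classes of distance above 10 kb had similar shares. Adjacent bins share reads, and the part of this in the 1 of 196 was not tested.

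Of the 600 PH-ML-high bins, 39, or 6.50% (4.79% to 8.76%), had an S2-high bin within 10 kb. Of the 210 S2-high bins, 32, or 15.2% (11% to 20.7%), had a PH-ML-high bin within that distance. Over all spanned bins, 0.0452% were S2-high and 0.129% PH-ML-high. The shares within 10 kb that these densities alone would give were not computed. The median distance to the nearest bin of the other direction was 484.4 kb from PH-ML-high bins and 61.4 kb from S2-high bins. With fewer S2-high bins, distances from PH-ML-high bins are longer by itself, and the lists were not brought to equal size. The dense end cluster of 3L also adds 46 long distances, as the outermost S2-high bin there was 616.5 kb from the end. The single pair of adjacent bins with opposite direction lay on X, with the PH-ML-high bin from 21414601 to 21414900 and the S2-high bin from 21414301 to 21414600. In 3 further pairs 1 unlisted bin lay between, namely on 3L with a PH-ML bin at 8672101 and an S2 bin at 8671501, on 3R with bins at 25619101 and 25618501, and on 3R with bins at 26213401 and 26214001. On 2R a PH-ML bin at 1643701 and an S2 bin at 1642801 were separated by 2 bins, and another pair there, at 1589401 and 1590901, by 4 bins. The PH-ML bin at 8672101 on 3L was also the nearest one to the S2 bins at 8673301 and 8673601.

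When bins of either direction were joined up to 10 kb, 18 of 382 groups held both directions, against 257 with PH-ML-high bins alone and 107 with S2-high bins alone. Of the 18, 9 consisted of 1 bin of each direction, and 13 had a single change of direction. The largest was on 3L from 606901 to 660300, with 11 PH-ML-high bins and 9 S2-high. It began with 1 PH-ML-high bin and 1 S2-high, followed by 10 PH-ML-high bins up to 641400 and then by 8 S2-high bins from 648901 on, so that the directions were parted into blocks with a free stretch between them. On 2R from 1608901 to 1645200 the directions were interleaved instead, with 14 PH-ML-high bins and 3 single S2-high bins among them, which made 6 changes of direction. On 3R from 25597501 to 25629300 it was the other way round, with 3 single PH-ML-high bins among 7 S2-high, again with 6 changes, next to the large cluster of S2-high bins. These 3 groups held 47 of the 89 bins in groups of both directions. In the inner part of 3L, from 8671501 to 8674200, 1 PH-ML-high bin lay between 1 bin and a run of 3 S2-high bins.

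**Figure D5:**
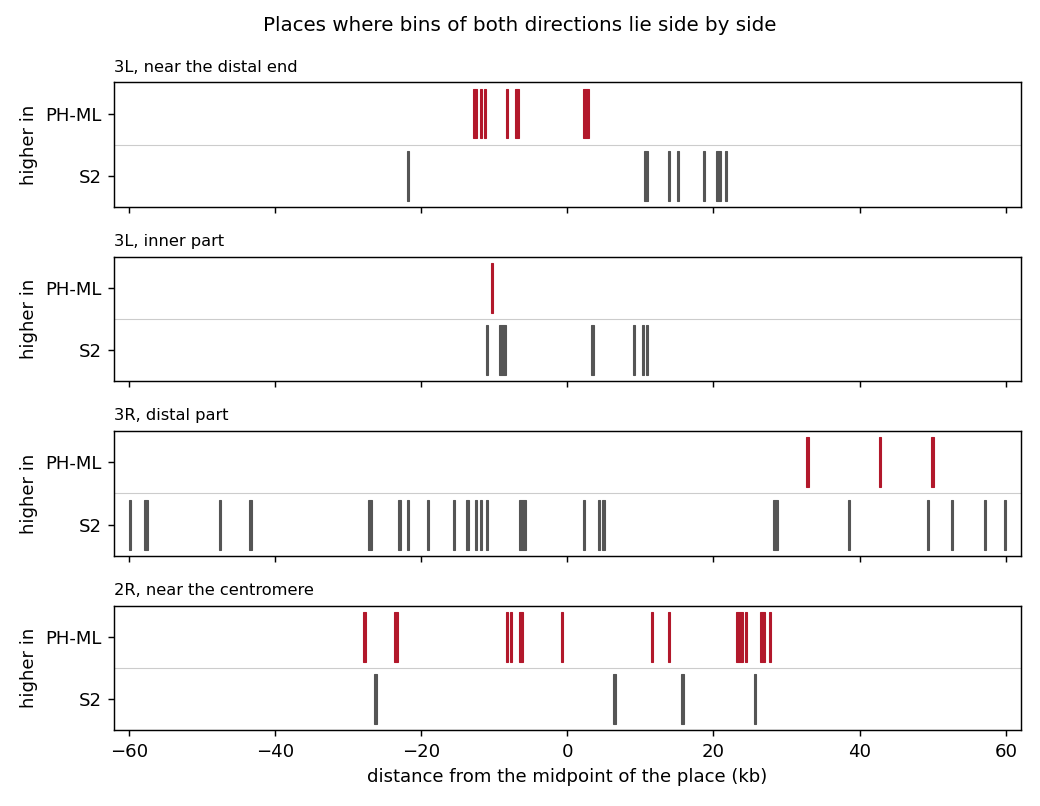
Listed bins at 4 places with both directions, as boxes of 300 bp against the distance from the midpoint of the place in kb, with PH-ML-high bins in the upper row and S2-high bins in the lower row of each panel. The places hold 10 and 9 bins (3L, near the distal end), 1 and 8 (3L, inner part), 3 and 28 (3R, distal part) and 17 and 4 (2R, near the centromere), PH-ML before S2, and the directions form blocks in the first and alternate in the last.

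Chromosome 4 had 19 PH-ML-high bins and 2 S2-high. Its density of PH-ML-high bins, 14.4 per Mb, was above that of every large arm, where the highest was 5.27, and its density of S2-high bins, 1.52 per Mb, was within the range of the arms. The 19 bins were scattered, in 11 clusters of which 6 were a single bin, and the closest group had 4 bins from 79501 to 81300. The 2 S2-high bins, at 1316101 and 1316701, were the last ones on the chromosome, and no PH-ML-high bin lay beyond 1222500. The heterochromatic and unplaced sequences together had 113 PH-ML-high bins and 40 S2-high, so that 73.9% of 153 bins were higher in PH-ML (66.4% to 80.2%), and on the large arms the share was 73.6% (70.0% to 76.9%). Most of them lay on U, with 84 PH-ML-high bins and 23 S2-high. On 2RHet the numbers were 9 and 9, on 3RHet 14 and 4, on 3LHet 4 and 0, and on 2LHet 2 and 2. XHet had no listed bin, and the 2 bins on YHet were higher in S2. U joins fragments of unknown position, so distances on it do not describe a chromosome. Since the files carry no gene names and no annotation of dm3 was used, genes at these sites are not named and no sequence is shown.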

How the data were processed

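The PH-ML (PH-mut) and S2 libraries, 10 each, were grouped by the titles of the samples. Per the methods of the study and the processing notes, the authors aligned the read pairs with Bowtie to the dm3 build and counted them in 300-bp bins. They scaled the counts by library size, regressed them on the MNase titration and took the slope after removing its dependence on GC as the MACC score. The deposited lists hold positions and a direction or a constant, so no test was possible and depth per library is unknown. Neither the test nor the threshold of the calls is given in the sources used here.

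Positions were read with Python 3.11.15, numpy 2.4.6 and scipy 1.17.1, and plotted with matplotlib 3.10.9. All 810 entries were 300 bp long and on a common grid, and the functions were tested on simulated data. Each sequence was taken to run up to the last bin in any list, since no dm3 sequence was used. Distal means low positions on 2L, 3L and X and high positions on 2R and 3R. Adjacent bins of 1 direction are a run. A cluster is a chain of bins with starts up to 10 kb apart. Sites named by rule are the 6 longest runs and 6 largest clusters of each direction and the 8 closest pairs of opposite direction. The list, its members and these rules were chosen with earlier results of these data known. The alternatives were merged bins, other joining and neighbor distances, the 5 large arms alone, other arm lengths and single-direction lists.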

Additional observations from a re-analysis of the deposited data

How the results depend on the processing

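Of 35 alternative values, 18 stayed within the 95% interval of the value given above and 17 moved out of it. The share of listed bins higher in PH-ML was 69.6% with runs of adjacent bins counted once and 68.3% with bins merged up to 1 kb. Between the starts of runs, the median spacing was 69.9 kb for PH-ML and 112.7 kb for S2, and without the largest cluster of each direction it was 9 kb and 88.8 kb. The share of bins in clusters of 5 or more was 21.8% for PH-ML and 0% for S2 with joining up to 1 kb, 44.8% and 29.5% with joining up to 50 kb, and, without the largest cluster of each direction, an alternative chosen after seeing the data, 30.7% and 9.28%. On the 5 large arms alone it was 42.3% for PH-ML. The share in the outermost segment of the arms was 21.5% for PH-ML with runs counted once, and without the largest cluster 20.4% for PH-ML and 25.7% for S2. The share with a bin of the other direction near was 0.833% for PH-ML and 2.38% for S2 within 1 kb, and 17.7% and 43.3% within 50 kb. Changes with the joining or neighbor distance follow from its definition, and the cause of the others was not tested. No paired analysis was possible because the lists join both experiments and give no value per library. For the same reason no experiment could be left out. The lists give no depth, so it is unknown how small a difference in MACC could be detected in a bin.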
